A study of Mus musculus with 4 samples.

Results

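Binding of SMAD4 was described at 9 mouse genes of 2 secreted protein families, the chitinases and chitinase-like lectins Chil3, Chil4, Chia1, Chil1 and Chit1 and the eosinophil-associated ribonucleases Ear1, Ear10, Ear2 and Ear6. These 9 genes were taken by name from 26089 genes with a curated RefSeq transcript. For each gene, the peaks of both SMAD4 libraries were collected whose summit lay in the gene body or within 50 kb of a transcription start site (TSS). Alveolar macrophages (AMs), which live in the airspaces of the lung, were sorted from the bronchoalveolar lavage of 9-week-old wild-type C57BL/6J mice, with no treatment named. HT-ChIPmentation, in which the transposase Tn5 adds sequencing adapters to chromatin still held on the beads, gave 2 libraries made with a SMAD4 antibody and 2 input libraries made without it. All groups shared the same genotype, and nothing in the sample descriptions tied the 2 SMAD4 libraries to separate animals, so that the spread between them may be technical. The deposited lists held 16369 peaks in replicate 1 and 19015 in replicate 2, and 10964 shared regions, merged intervals in which peaks of both lists overlapped by at least 1 bp.

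SMAD4 is the common partner of the receptor-activated SMAD proteins and carries signals of TGFβ, a cytokine that AMs need for their development and upkeep, to the nucleus. Chil3 encodes Ym1, a chitinase-like lectin without chitinase activity that is among the best-known products of mouse AMs. Ear proteins belong to the ribonuclease A superfamily and were named after the eosinophil granule, but several are also transcribed in macrophages. Both families grew by gene duplication, so that neighboring genes share long stretches of similar sequence.

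The strongest binding was found upstream of Chil3, and weaker sites recurred at similar positions around some of the Ear genes. The windows of the 9 genes held 22 peaks in replicate 1 and 28 in replicate 2 (25 ± 4.24, SD, n = 2). Of these, 17 in each replicate overlapped a peak of the other, which is 77.3% and 60.7% of them, next to 69.4% and 59.2% of all peaks. The resulting 17 shared regions lay in the windows of 7 of the 9 genes, where 39.1% of 20923 protein-coding genes had such a region. For 6 of the 9 genes a shared region had that gene's TSS as its nearest, which held for 21.5% of protein-coding genes. A shared region lay in the promoter, from 1 kb upstream to 100 bp downstream of the TSS, of 4 genes, Chil3, Chil4, Ear2 and Ear6, against 3.1% of protein-coding genes. The members lie in gene clusters and some windows overlap, so they were not independent draws from all genes, and these shares were not tested. The plot of peaks by distance from each TSS gives every peak.

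**Figure D1:**
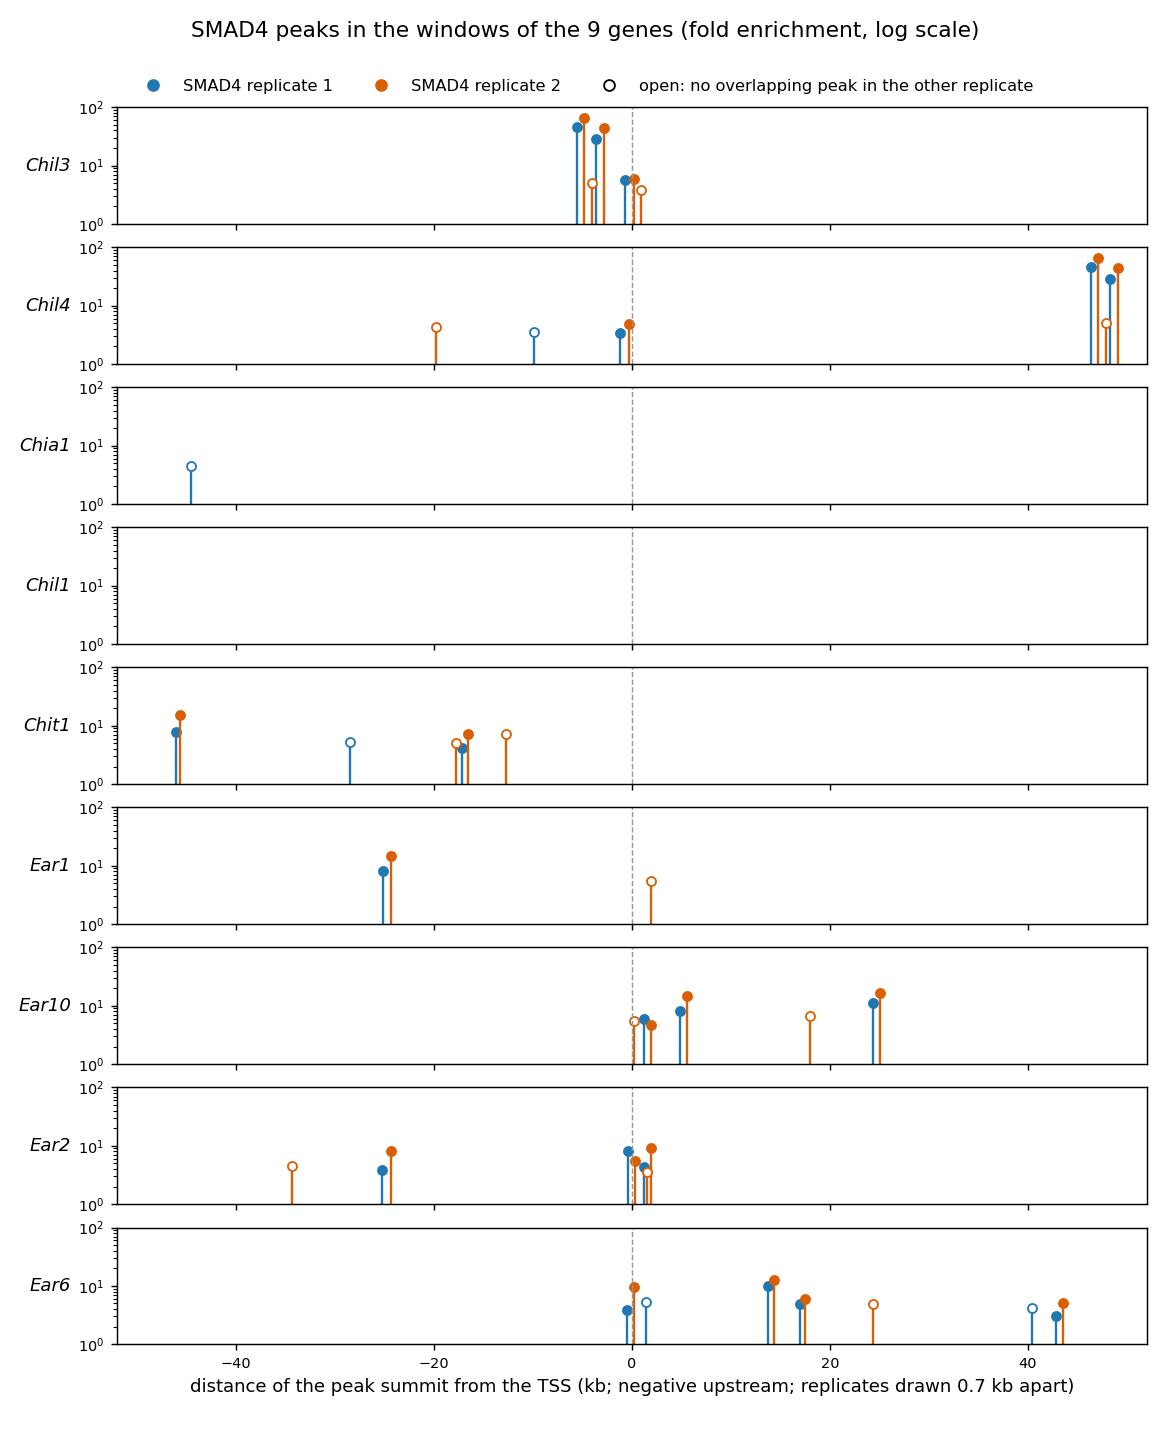
Fold enrichment (log scale) of each SMAD4 peak against the distance of its summit from the TSS of the gene named at the left, for replicate 1 (blue) and replicate 2 (orange), drawn 0.7 kb apart. Filled points mark peaks with an overlapping peak in the other replicate. The Chil3 window holds the highest points, which appear again at the right of the Chil4 window, and the Chil1 window is empty.

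By feature, 10 of the 17 shared regions were intergenic, 4 lay in promoters and 3 near a transcription termination site (TTS). The nearest TSS was that of a member for 13 regions and that of another gene for 4. Those others were Gm19497, Btg2, Mettl17 and Slc39a2. Fold enrichment is the summit pileup of fragments over the control level, with 1 added to each. It was higher in replicate 2 at 15 of the 17 regions, as at 87.2% of all shared regions. The most frequent control level was 2.08 fragments in replicate 1 and 1.22 in replicate 2, so that a higher fold need not mean more fragments. Some of the 15 regions, such as the Chil3 promoter region (18 and 13 fragments), had fewer fragments in replicate 2, and others had more. The median ratio of replicate 2 over replicate 1 was 1.54 at member regions and 1.39 over all shared regions. The smaller fold of the pair had a median of 5.41 at member regions and 6.5 over all shared regions, so that the typical member region was somewhat lower. Apart from the regions 5173 bp and 3194 bp upstream of Chil3, member regions ranked from 2000 to 10922 of 10964 by the smaller fold. The 5 and 11 peaks found in a single replicate had folds of 3.5 to 7.22 and rested on 7 to 15 fragments at the summit.

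**Figure D2:**
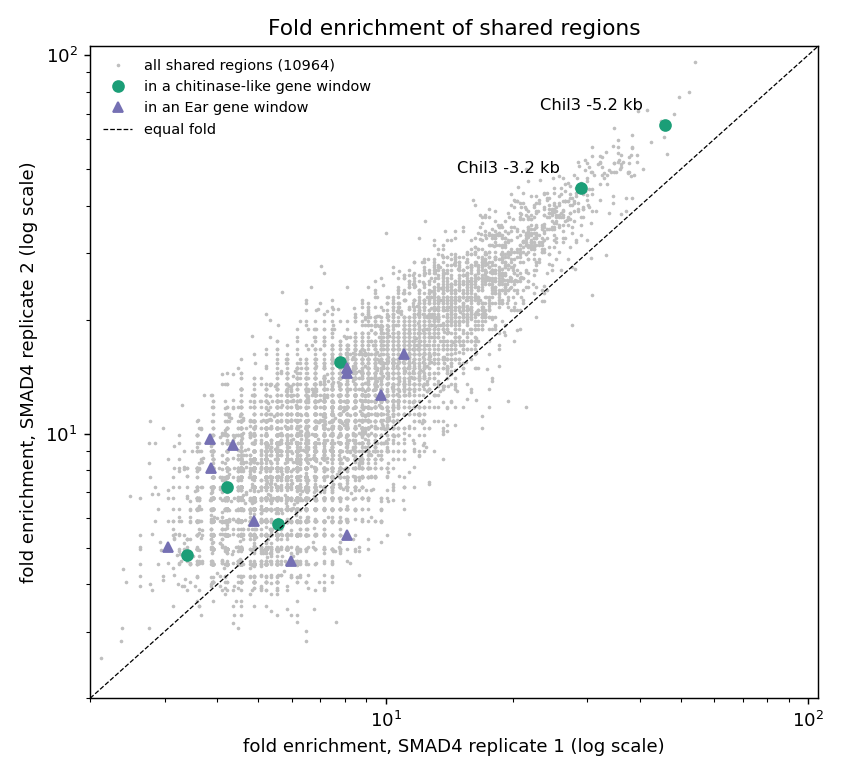
Fold enrichment of each shared region in SMAD4 replicate 1 and replicate 2 (both axes log scale) for all 10964 regions (gray), those in windows of chitinase-like genes (green circles) and those in windows of Ear genes (purple triangles). The dashed line marks equal fold. The regions 5173 bp and 3194 bp upstream of Chil3 stand at the upper right, and the other member regions lie in the body of the distribution or at its lower end.

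The Chil3 gene (chr3:106147554-106167564, minus strand, mm10) had 3 shared regions, all upstream of or at its TSS. The strongest, chr3:106172257-106173307, had its mean summit 5173 bp upstream of the TSS, in intergenic sequence. Its fold was 45.8 in replicate 1, from 140 fragments at the summit (95% exact Poisson interval 118 to 165, counting error only), and 65.4 in replicate 2, from 144 fragments (121 to 170). By the smaller fold of the pair it ranked 6 among all 10964 shared regions, and by the fold of replicate 1 or replicate 2 alone it ranked 6 or 8. The regions just above it in rank lay nearest to 2810029C07Rik (folds 46.4 and 54.7) and Cd33 (48.1 and 69.9), a sialic acid-binding receptor of myeloid cells. Those just below it lay nearest to Gda (45.5 and 60.9), which encodes guanine deaminase, and Nt5c2 (44.8 and 66.8), which encodes a cytosolic nucleotidase.

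The next region, chr3:106169976-106171198, had its mean summit 3194 bp upstream of the TSS. Its fold was 29.1 in replicate 1 (89 fragments, interval 71.5 to 110) and 44.7 in replicate 2 (99 fragments, 80.5 to 121), which placed it at rank 96. The promoter region of Chil3, with a mean summit 246 bp upstream of the TSS, was far lower, with folds of 5.57 (18 fragments, 10.7 to 28.4) and 5.78 (13 fragments, 6.92 to 22.2). In replicate 1 the fragment intervals of the 3 regions did not overlap. In replicate 2 the intervals of both upstream regions met at 121 fragments, and both lay far above that of the promoter. Replicate 2 had a pair of further peaks without a partner, 4365 bp upstream (fold 4.96, 10 fragments) and 586 bp downstream of the TSS (3.86, 10 fragments).

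The sequence at both strong Chil3 summits is shown because both windows hold the letters of the C/EBP binding site, and because a related stretch upstream of Chil4 does not. Such letters were found in 56.1% of all shared regions, and whether they bear on binding here was not tested. Each is read on the minus strand, in the direction of Chil3 transcription, and capitals mark matches to the 10 sets of strings searched, here C/EBP alone (TTGCNNAA or TTACNNAA, either strand). The coordinates in mm10 are chr3:106172637-106172837 for the region 5173 bp upstream, chr3:106170658-106170858 for the region 3194 bp upstream and chr3:106225193-106225377 for its Chil4 relative.
Chil3, 5173 bp upstream: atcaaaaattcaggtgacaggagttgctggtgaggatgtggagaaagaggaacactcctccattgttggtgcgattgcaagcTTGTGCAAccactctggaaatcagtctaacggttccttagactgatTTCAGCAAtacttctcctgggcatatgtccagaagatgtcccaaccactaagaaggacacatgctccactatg
Chil3, 3194 bp upstream: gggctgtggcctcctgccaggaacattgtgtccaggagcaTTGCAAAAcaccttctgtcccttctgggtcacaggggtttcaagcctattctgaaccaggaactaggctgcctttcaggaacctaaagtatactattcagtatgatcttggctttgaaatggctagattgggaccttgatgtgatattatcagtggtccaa
Chil4 relative of the 3194 bp sequence: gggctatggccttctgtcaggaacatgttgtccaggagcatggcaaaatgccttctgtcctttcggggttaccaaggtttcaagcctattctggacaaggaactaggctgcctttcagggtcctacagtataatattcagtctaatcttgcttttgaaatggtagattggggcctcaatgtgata

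Chil4 (chr3:106201491-106219479, minus strand) encodes Ym2, a close relative of Ym1, and starts 51915 bp upstream of Chil3. Its own shared region lay 721 bp upstream of its TSS and was among the lowest of all by fold, with folds of 3.39 (15 fragments) and 4.78 (14 fragments) and rank 10850. The control levels there were 3.716 and 2.138 fragments, against a usual 2.08 and 1.22. The strong Chil3 regions also fell in the Chil4 window, but on its far side, and their nearest TSS was that of Chil3. Single-replicate peaks lay 9501 bp upstream of Chil4 in replicate 1 (fold 3.50) and 20110 bp upstream in replicate 2 (4.27).

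Sequence similar to each Chil3 region was present upstream of Chil4, without a peak of either list over it. The printed window 3194 bp upstream of Chil3 aligned over 186 columns at 84.9% identity with a stretch centered 5806 bp upstream of the Chil4 TSS. In the Chil3 window the C/EBP letters TTGCAAAA stood 56 bp from the mean summit, and no C/EBP string was found in the aligned Chil4 stretch. All 50-base words of that longer Chil4 alignment, found with 301 bases around the summit, occurred once in the genome, so that reads from it could be placed. The 5173 bp window aligned at 77.9% identity over 222 columns to a stretch centered 16224 bp upstream of Chil4. No C/EBP string was found in this Chil4 stretch either, but it held the SMAD letters GTCTGG and the STAT5 letters TTCTCAGAA. This Chil3 element was of a repeated kind: 9 further stretches on 5 chromosomes matched its 301 bases at 90% identity or more over at least 240 bases, and none of the 9 overlapped a peak. The share of unique words in those 9 was not counted. Looser matches within 10 Mb were left out for regions with over 50 of them, and none are listed for this element. The Chil4 stretch may therefore be 1 of many copies of a repeat. Only 44.8% of the 50-base words of the Chil3 region 5173 bp upstream were unique, against 98.4% of those 3194 bp upstream. The promoters of the pair were closest. Around the Chil3 promoter summit 199 columns aligned at 93.5% identity to a stretch centered 275 bp upstream of Chil4, where no peak lay, and the sequence under the Chil4 region aligned at 93.7% with one that overlapped the replicate 1 peak of the Chil3 promoter.

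**Figure D3:**
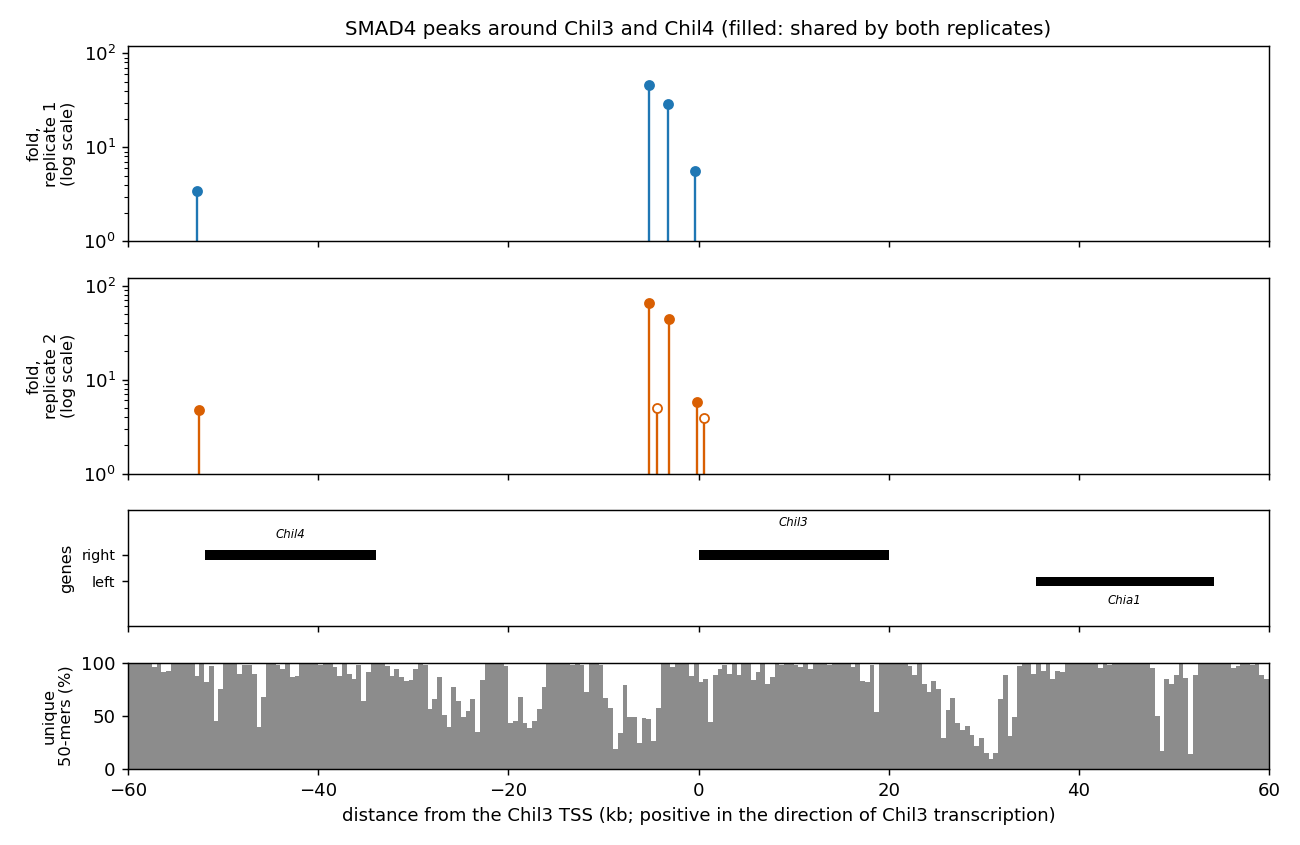
Peaks around Chil3 and Chil4 by distance from the Chil3 TSS (kb, positive in the direction of Chil3 transcription). From the top, fold enrichment in replicate 1 and in replicate 2 (log scale, filled points shared by both), genes drawn by the direction of transcription, and the percentage of 50-base words that occur once in the genome in bins of 500 bp. The tall peaks stand between Chil4 and Chil3, close to the Chil3 start.

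The remaining chitinase genes had few or no peaks of their own. Chia1, which encodes the acidic mammalian chitinase, had no shared region and 1 peak of replicate 1, 44132 bp upstream (fold 4.55, 13 fragments), which lay nearest to the TSS of Chil5. Chil1, which encodes a chitinase-like lectin known from lung inflammation, had no peak of either list in its window. Unique words made up 98.6% of the Chil1 window and 80.2% of the Chia1 window, so that most of both could carry reads. Chit1 encodes chitotriosidase, an active chitinase of macrophages. Its window held shared regions 45814 bp upstream (folds 7.80 and 15.5, 23 and 36 fragments), nearest to the noncoding gene Gm19497, and 16872 bp upstream (4.22 and 7.22, 12 and 15 fragments), nearest to Btg2, an antiproliferative gene. The only Chit1 peak with Chit1 as nearest gene was found in replicate 2 alone, 13076 bp upstream (fold 7.22, 15 fragments). Further peaks without a partner, 28136 bp upstream in replicate 1 (5.20) and 18060 bp upstream in replicate 2 (4.96), lay nearest to Btg2. All words in both shared Chit1 regions were unique.

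Of 5 other genes of the chitinase family (Chil5, Chil6, Chid1, Ctbs and Ovgp1), 4 had a shared region in the window, next to 39.1% of protein-coding genes. For 2 of the 5 a shared region had that gene as its nearest (21.5% of protein-coding genes), and 1 of the 5 had a region in its promoter (3.1%). This was Ctbs, which encodes the lysosomal enzyme chitobiase (folds 5.20 and 10.8). The strongest region in the Chid1 window had folds of 6.17 and 9.02 and that in the Ovgp1 window 5.52 and 15.3. The Ctbs, Chid1 and Ovgp1 regions were lower than both upstream Chil3 regions and higher than the Chil4 region in each replicate. The region in the Chil6 window (5.20 and 3.86) was above the Chil4 region in replicate 1 and below it in replicate 2. The Ovgp1 and Chil6 regions lay nearest to other genes, I830077J02Rik and Dennd2d.

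The ribonuclease genes Ear1, Ear10 and Ear2 lie in 1 cluster on chromosome 14, with 283015 bp between the starts of Ear1 and Ear2 and several pseudogenes among them, and Ear6 lies 7751114 bp from Ear2 beside further ribonuclease genes. Each gene is short, from 699 bp for Ear10 to 878 bp for Ear2. Their 11 shared regions had folds between 3.05 and 16.2, and none approached the upstream Chil3 regions. At several of the genes 3 kinds of site recurred, a far upstream site, a promoter site and a site beyond the 3′ end. Their distances from the TSS were similar but not equal, and none of the 3 kinds gave a shared region at every Ear member.

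The far upstream site was found upstream of Ear1, Ear2 and the pseudogene Ear-ps9, but each copy lay closer to the start of another pseudogene. These starts were Ear-ps12 for the Ear1 site (9788 bp away), Gm16545 for the Ear2 site (3452 bp) and Ear-ps8 for the third (3251 bp). To which locus the sites belong was not tested. At Ear1 (chr14:43818765-43819639, minus strand) it was the region chr14:43844042-43844620, 24761 bp upstream of the TSS, with folds of 8.12 in replicate 1 (24 fragments, interval 15.4 to 35.7) and 14.4 in replicate 2 (31 fragments, 21.1 to 44.0). At Ear2 (chr14:44102654-44103531, plus strand) it was chr14:44077696-44078078, 24765 bp upstream, with folds of 3.87 (15 fragments, 8.4 to 24.7) and 8.12 (17 fragments, 9.9 to 27.2). The control level behind replicate 1 at this Ear2 site was 3.136 fragments, against a usual 2.08. The third, chr14:43898550-43899024, lay 24701 bp downstream of the Ear10 TSS, its nearest curated TSS, and 23556 bp upstream of the annotated start of Ear-ps9, and had the highest folds of the 3, 11.05 (33 fragments, 22.7 to 46.3) and 16.2 (35 fragments, 24.4 to 48.7). The fragment intervals of the 3 sites overlapped in replicate 1 as in replicate 2. Over 301 bases around the Ear2 summit, the sequence was 96.7% identical to the Ear1 site and 98.7% identical to the site in the Ear10 window.

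A stretch of 141 bases centered on the replicate 2 summit at Ear1 is shown with its alignments at the other sites, since it carries a pair of AP-1 strings (TGANTCA) at the same spacing in all 3. Capitals mark these. The Ear1 sequence (chr14:43844264-43844404) and the Ear10-window sequence (chr14:43898676-43898816) are read on the minus strand and the Ear2 sequence (chr14:44077864-44078004) on the plus strand, that is, toward the gene or pseudogene downstream. Both alignments covered 141 columns at 98.6% identity. The stretch was placed by the Ear1 summit of replicate 2 alone, and the replicate 1 summit lay outside it at all 3 sites. In the Ear10 window the replicate 2 summit also lay outside it, and the nearer AP-1 string stood 94 bp from the mean summit. At Ear2 the replicate 2 summit lay at its edge, and the strings stood 10 and 5 bp from the mean summit, between replicate summits 228 bp apart.
Ear1: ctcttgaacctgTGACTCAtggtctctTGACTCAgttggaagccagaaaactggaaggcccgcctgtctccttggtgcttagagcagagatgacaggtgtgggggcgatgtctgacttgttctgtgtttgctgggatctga
Ear10 window, upstream of Ear-ps9: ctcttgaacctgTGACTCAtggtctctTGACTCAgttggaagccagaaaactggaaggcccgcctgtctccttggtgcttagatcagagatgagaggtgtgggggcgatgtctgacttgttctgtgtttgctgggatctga
Ear2: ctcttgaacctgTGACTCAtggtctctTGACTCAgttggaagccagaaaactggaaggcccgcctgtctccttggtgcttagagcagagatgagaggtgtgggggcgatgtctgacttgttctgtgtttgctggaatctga

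Not every relative of this site had a peak. The 301 bases of the Ear2 site had 6 alignments on chromosome 14 in all. Besides the 2 with a peak in both replicates, 4 at 81.6% to 91.3% identity, near Ear14, Rnase2a, Ang5 and Ang6, had none. Of these, the relatives near Ear14 and Rnase2a had 92.9% and 94.4% unique 50-base words, more than the sites with peaks at Ear1 (62.3%) and in the Ear10 window (45.2%). Those near Ang5 and Ang6 had 30.6% and 29.0%.

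**Figure D4:**
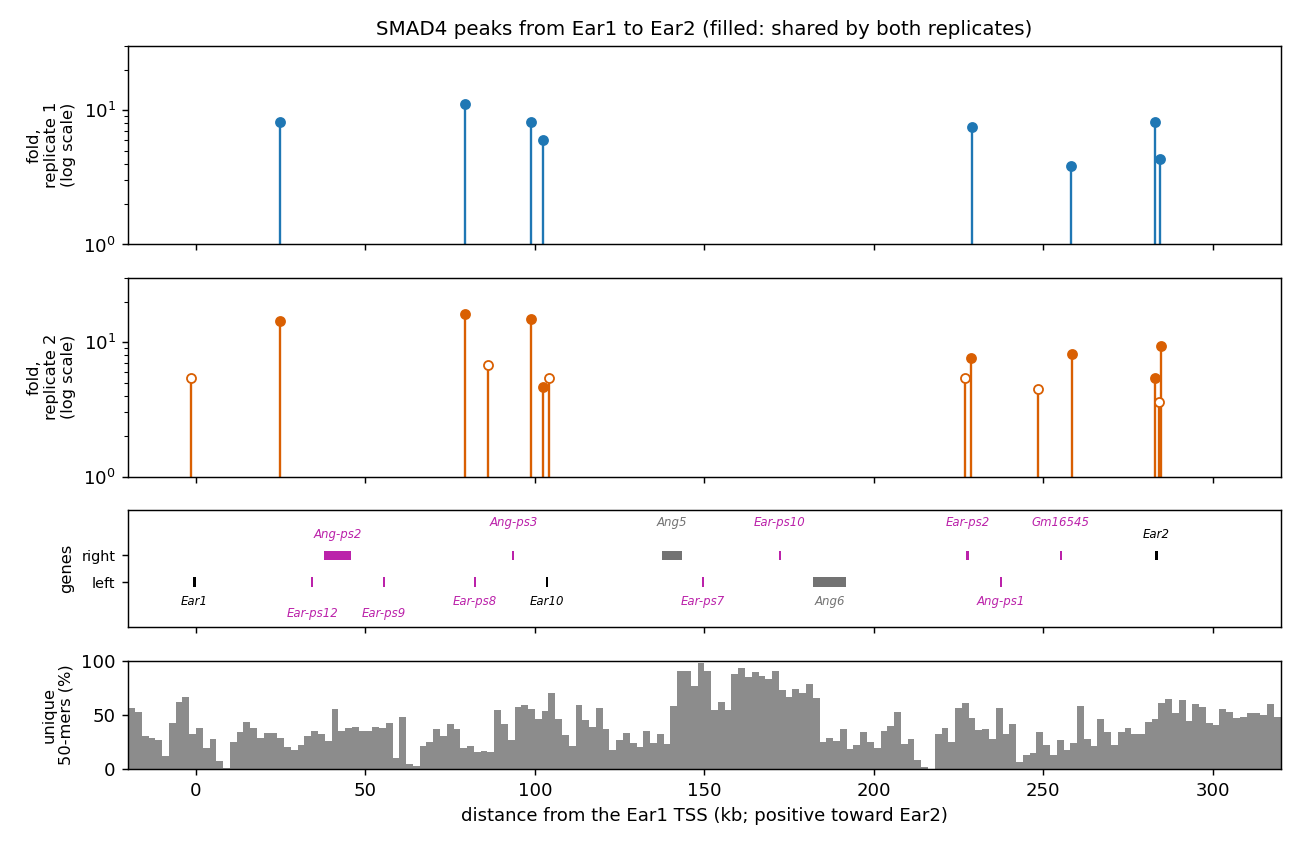
Peaks from Ear1 to Ear2 by distance from the Ear1 TSS (kb), laid out as in the Chil3 map, with genes in black (members) or gray and pseudogenes in magenta, and unique 50-base words in bins of 2 kb. Shared peaks stand far upstream of Ear1 and Ear2, at Ear2 and on the downstream side of Ear10, and unique words are few over most of the cluster.

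Promoter peaks were called at some of the 4 Ear genes. Ear2 had a shared region with its mean summit 8 bp downstream of the TSS (folds 8.12 and 5.41, 24 and 11 fragments). Ear6 had one 121 bp upstream (3.85 and 9.65, 24 and 31 fragments), where the control level behind replicate 1 was 5.49 fragments, against a usual 2.08. Ear10 had a promoter peak in replicate 2 alone, 148 bp upstream (5.41, 11 fragments). Ear1 had no promoter peak in either list, although 301 bases around the Ear2 promoter summit matched the Ear1 promoter at 98.7% identity.

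A stretch upstream of the TSS is shown for the 4 Ear promoters, because all 4 hold C/EBP letters there. Capitals mark these letters, which began 92 bp upstream of the TSS in Ear1, 94 bp in Ear10, 90 bp in Ear2 and 112 bp in Ear6. The sequences are from RefSeq (GRCm38.p6), read in the direction of each gene, at chr14:43819668-43819743 and chr14:43923627-43923702 (minus strand) and at chr14:44102552-44102627 and chr14:51853644-51853719 (plus strand). All 76 bases were the same in Ear1 and Ear2, and 10 of the 76 differed between Ear10 and Ear2.
Ear1: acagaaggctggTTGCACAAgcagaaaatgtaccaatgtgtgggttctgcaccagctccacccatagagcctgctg
Ear10: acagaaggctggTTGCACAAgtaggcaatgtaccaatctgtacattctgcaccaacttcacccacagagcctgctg
Ear2: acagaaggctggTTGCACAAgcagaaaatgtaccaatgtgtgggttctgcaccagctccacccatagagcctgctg
Ear6: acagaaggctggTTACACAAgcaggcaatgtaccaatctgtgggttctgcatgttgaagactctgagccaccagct

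Sequence like the Ear2 promoter was found at 16 places on chromosome 14, counting Ear2 itself. Of these copies, 7 lay nearest to protein-coding genes of the family and 9 to pseudogenes. The copy nearest to Ear-ps3 was centered 2968 bp upstream of that pseudogene's start, outside the promoter as defined here. A peak of both replicates covered 4 of the 7 gene copies and none of the 9 pseudogene copies, but 4 of the pseudogene copies had few unique 50-base words, from 1.12% at Ear-ps8, 17.5% at Ear-ps12 and 18.7% at Gm16545 to 39.8% at Ear-ps9. The gene copies with peaks in both were Ear2, Ear6, Rnase2b (folds 8.65 and 8.57) and Rnase2a (7.47 and 10.05), the latter pair being ribonucleases of the same family. Ear10 and the pseudogene Ear-ps2 each had a peak in replicate 2 alone. Of the 10 copies without a peak, 5 had more than 80% unique words, namely those of Ear14, Ear-ps1, Ear-ps3, Ear-ps7 and Ear-ps10, whose identity with Ear2 was between 78.5% and 83.1%. The Ear1 copy had 17.9% unique words of 50 bases and 68.2% of 100 bases. At Ear1 and at the pseudogene copies with few unique words, a lack of binding and a lack of placed reads cannot be told apart.

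The third kind of site lay about the same distance past the short genes, beyond the 3′ end. Ear10 had a shared region 1578 bp downstream of its TSS (folds 5.97 and 4.60, 19 and 10 fragments) and Ear2 had one 1570 bp downstream (4.35 and 9.35, 17 and 30 fragments). The control levels behind this Ear2 region were 3.136 and 2.315 fragments, against a usual 2.08 and 1.22. A peak lay 1563 bp downstream of Ear1 in replicate 2 alone (5.41, 11 fragments), 353 bp upstream of the start of the predicted noncoding gene Gm32427, and 1738 bp downstream of Ear6 in replicate 1 alone (5.20, 15 fragments). Around the Ear2 summit the sequence was 97.3% identical to Ear10, 97.9% to Ear1 and 91.2% to Ear6. Among 7 relatives of the Ear2 sequence, 2 had a peak in both replicates, 3 in 1 replicate and 2 in none. The pseudogene Ear-ps2 was the other place with a peak in both, with folds of 7.47 and 7.67. The PU.1 letters GAGGAAGT stood 42 bp from the summit at Ear2 and, on the other strand, 34 bp from it at Ear10.

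**Figure D5:**
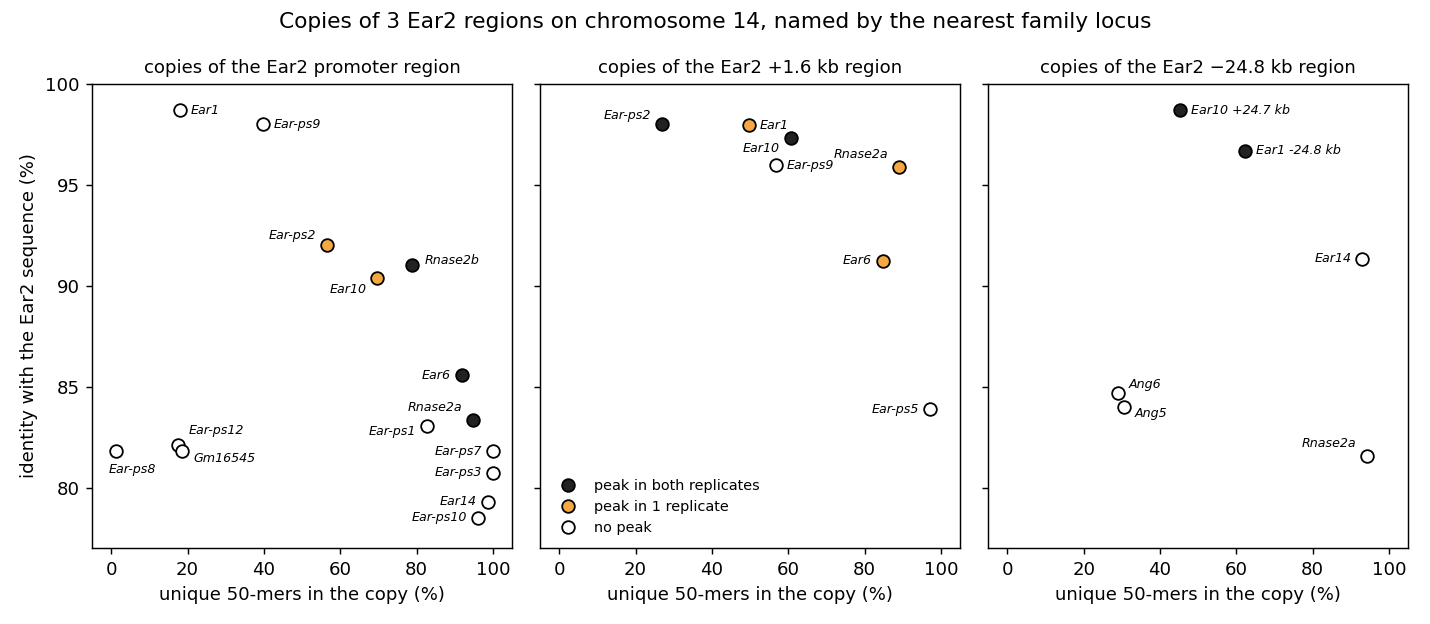
Relatives of 3 Ear2 regions, named by the nearest family locus or, for the far upstream site, by the member region they overlap. Each point gives the percentage of unique 50-base words (x) and the identity with Ear2 (y), filled black for a peak in both replicates, orange for a peak in 1 and white for none. White points occur at both ends of the x axis, and the Ear1 promoter is among those with few unique words.

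Other shared regions of the Ear genes had no counterpart at matching positions of another member. Ear10 had a shared region 5222 bp downstream of its TSS (folds 8.12 and 14.9, 24 and 32 fragments). It had 2 relatives at 98.3% identity, near Ear-ps9 and Ear-ps2. No 50-base word in these was unique (0.0%), so that a read lying within them could not be placed by its own sequence. Of 8 relatives in all, 1 had a peak, in replicate 2 alone, with Ang2 as its nearest family locus (6.77, 14 fragments). Ear6 had its strongest region 14055 bp downstream (9.75 and 12.6, 29 and 27 fragments), and further ones 17226 bp downstream, nearest to Mettl17 (4.87 and 5.87), and 43212 bp downstream, nearest to the zinc transporter gene Slc39a2 (3.05 and 5.02). All words of these Ear6 regions were unique, and none had a relative at 90% identity. Peaks of replicate 2 without a partner lay 17700 bp downstream of Ear10 (6.77), 34713 bp upstream (4.51) and 1157 bp downstream (3.61) of Ear2, and 24033 bp downstream of Ear6 (4.96). Replicate 1 had one 40752 bp downstream of Ear6 (4.22), in an intron of Slc39a2.

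The share of unique sequence differed widely among the members, which may bear on every count above because the authors kept only reads of high mapping quality. Unique 50-base words made up 38.5% of the window of Ear1, 40.5% of Ear10 and 38.6% of Ear2, against 83.5% of Ear6, 82.6% of Chil3, 81.2% of Chil4 and 93.2% of Chit1. With words of 100 bases the windows of Ear1, Ear10 and Ear2 had 63.7%, 63.5% and 64.6%. Reads were kept as proper pairs, and these word counts take no account of the mate. In the gene bodies the share of 50-base words was lowest in Ear1, at 36.2%. How far this lowered the number or height of Ear peaks was not tested, nor whether reads from a copy were placed at another.

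Of 16 further genes of the ribonuclease A family in the gene models, 14 had a shared region in the window, 7 were the nearest gene to one and 4 had one in the promoter. Over all protein-coding genes these shares were 39.1%, 21.5% and 3.1%, but these genes stand close together and share regions. Every shared region in the windows of Ang5 and Rnase13 was also a member region described above. The highest in their windows had folds of 13.0 and 11.7 (in the windows of Rnase1, Rnase4, Rnase6, Ang and Rnase2b, nearest to Eddm3b) and 11.7 and 16.2 (nearest to Rnase4). Both were below the upstream Chil3 regions in each replicate.

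Strings of known binding sites were counted in 201 bases around the mean summit of each shared region. C/EBP letters (TTGCNNAA or TTACNNAA) were found in 10 of the 17 member regions (58.8%), next to 56.1% of all shared regions, and AP-1 letters (TGANTCA) in 6 (35.3%, all 12.3%). The 6 included the 3 related far upstream Ear sites, which share their sequence and do not count as separate observations. PU.1 letters (GAGGAAGT) were found in 3 (17.6%, all 8.01%), the nuclear receptor letters AGGTCA in 4 (23.5%, all 15.4%), STAT5 letters (TTCNNNGAA) in 2 (11.8%, all 8.07%), and RUNX letters (TGTGGT) in 1 (5.88%, all 26.4%). The C/EBP, PU.1 and AGGTCA counts each include the related sites beyond the 3′ ends of Ear2 and Ear10, which are likewise not separate observations. The SMAD letters GTCTGG or GTCTAGAC were found in 1 (5.88%, all 11.6%), the Ear1 far upstream region, 59 bp from its mean summit. The strings CAGGAAGT, CACGTG and GTGGGAA, written for ELF5-type factors, E-box factors and RBPJ, were found in no member region (all 5.63%, 3.65% and 4.14%). In RefSeq promoter windows, C/EBP letters were present in 7 of the 9 members, all but Chia1 and Chit1, and in 18.5% of 32851 promoters. The promoters of Ear1, Ear10, Ear2 and Ear6, all among the 7, are related copies and do not count as separate observations. SMAD letters were present in none of the 9 promoters and in 18.1% of all. No test was made of these shares, and a match is not evidence that the factor binds.

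Genes known for several cell types were looked up as well, which cannot check the sorted cells. Shared regions lay in the windows of 9 of 9 genes known for AMs, such as Marco and Pparg, next to 39.1% of protein-coding genes. The counts were 3 of 5 for eosinophil genes, and 2 of 5, near the share of all protein-coding genes, for neutrophil genes and for lung epithelial genes. A shared region had the gene as its nearest for 8 of the 9 AM genes, 2 of the 5 eosinophil genes, 1 of the 5 neutrophil genes and 1 of the 5 epithelial genes. Over all protein-coding genes this share was 21.5%, and that with a promoter region was 3.1%. A promoter region was found for 1 AM gene (Pparg), no eosinophil gene, 1 neutrophil gene (S100a8, folds 13.6 and 30.7) and 1 epithelial gene (Scgb1a1, 7.47 and 11.3). Binding near a gene does not measure its transcription, and these counts do not say how many cells of other types the sort held.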

How the data were processed

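SMAD4 HT-ChIPmentation peak lists of 2 libraries were analysed. The 2 input libraries had no values of their own and entered through the control level. Per the methods, reads were trimmed (Cutadapt) and aligned to mm10 (Bowtie2) by the authors, who removed duplicates, kept proper pairs above a mapping quality of 30 with SAMtools, and called peaks in each library with MACS3 against input at q 0.05. Each deposited peak carries a summit, a fold ratio, the −log10 of its p-value and q-value, and a score. The fold is the ratio of pileup to control, with 1 added to each. The score, which the authors' caller derived from q, was not used. The lists hold no read counts, and the depth of the libraries was not used here. Coordinates are 1-based.

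Summit fragments were solved as the whole number that fits fold and −log10 p together, with a largest misfit of 0.00054 in −log10 p, and intervals are 95% exact Poisson intervals for counting error only. The solving, word and string searches were tested on simulated data. Gene models were 45657 curated transcripts of RefSeq GRCm38.p6, the build mm10 names. Words were counted on both strands of the main chromosomes. Relatives were found with blastn (BLAST+ 2.17.0) from 301 bases around a mean summit, at 75% identity or more over at least 150 bases within 10 Mb. They were not listed for regions with very many such places. Analyses were run in Python 3.11.15 with pandas 2.3.3. Sequence windows of all 9 members were found in the RefSeq promoter table.

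With 2 libraries of 1 group there was no contrast to test, so values are given per replicate. Replicate numbers follow accession order. Members, family lists and strings were chosen with earlier results of these data known. Named genes are the 9 members, each gene nearest to a peak in their windows, the family lists, and the nearest genes of the 2 shared regions just above and just below the strongest member region. Alternatives were windows of 20 and 100 kb, q of 0.001, fold of 5, stricter overlap, each replicate alone, predicted transcripts, wider promoters, other string windows, and words of 36 and 100 bases.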

Additional observations from a re-analysis of the deposited data

How the results depend on the processing

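The main counts were 7 members with a shared region, 6 nearest to one and 4 with a promoter region. Each stayed within 1.5 times of these under every alternative run for it. The promoter count was not rerun at a fold of at least 5 or with summits within 100 bp. Neither setting would keep all 4. The Chil4 and Ear6 promoter regions had folds of 3.39 and 3.85 in replicate 1, and replicate summits lay 259 bp apart at the Chil3 promoter and 241 bp apart at Chil4. Widening the window to 100 kb gave 9 members with a shared region, among them Chil1 and Chia1. The number of peaks in replicate 1 (22) was 14 with a 20 kb window and 12 at a fold of at least 5. The shared regions (17) numbered 9 at a fold of at least 5, 9 when summits had to lie within 100 bp, and 22 to 28 when a single replicate was used. With 50 bp each side of the summit in place of 100, C/EBP letters were found in 4 regions, AP-1 in 3, nuclear receptor letters in 2, STAT5 in 0 and SMAD in 0. With 200 bp, nuclear receptor letters were found in 7, ELF5-type letters in 3, RUNX in 3 and RBPJ in 1. With the summit of a single replicate the counts were 0 to 1 for ELF5-type letters, 3 to 4 for AP-1, 1 to 2 for RUNX, 0 to 2 for STAT5 and 0 to 1 for SMAD. Members with under 50% unique words numbered 3 with words of 50 or 36 bases and 0 with words of 100 bases. The strongest Chil3 region ranked 6 or 8 in a single replicate. No paired analysis was possible because only the SMAD4 group has peak lists and replicate numbers follow accession order. Most member regions rested on fewer than 40 fragments at the summit, so that their folds carry a wide counting error.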
